A study of Mus musculus with 49 samples.

Results

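After 1 week of drinking water with 0.5 ppm arsenate, the urinary bladders of 4 female mice (strain C57Bl/J) were compared with those of 5 females of the same strain given water alone. The arrays were found by the start of their titles, which gives the dose and the harvest, and they are 9 of the 49 arrays of the series. The series measured bladder RNA on Affymetrix Mouse430_2 arrays after 1 or 12 weeks of arsenate at 0.5, 2, 10 or 50 ppm or of plain water, with 24 arrays at 1 week and 25 at 12 weeks. The comparison asks which bladder transcripts differed at the lowest dose after the shortest exposure. All 9 mice were adult and 76 days old, drank ad libitum and were killed with carbon dioxide, and each bladder was kept in RNA later. Each array held the RNA of 1 mouse with no pooling, so a replicate is an animal, and the replicates carry the numbers 2 to 5 at 0.5 ppm and 1 to 5 in water. All mice at 0.5 ppm share the number 8 at the start of their mouse label and all water mice share the number 3. The labels do not say what that number stands for, so the dose and whatever it marks cannot be told apart.

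Arsenate is the pentavalent inorganic form of arsenic. Cells reduce it to arsenite, which binds protein thiols, and methylate it, and the products leave the body largely through the urine, so that the bladder lining is exposed to them. Arsenite is a classical inducer of heat shock proteins, of the metallothioneins and of the antioxidant genes controlled by the transcription factor NRF2. The bladder wall has a urothelium of basal, intermediate and superficial cells, a lamina propria of fibroblasts, vessels and matrix, a thick smooth muscle layer and an outer mesothelium.

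After 1 week at 0.5 ppm, 7 genes fell and none rose. Of 14618 genes tested with limma on the 24 arrays of the 1-week harvest, 7 (0.0479%) passed a Benjamini-Hochberg adjusted p of 0.05, all of them lower at 0.5 ppm than in water. They were Tmem200c, Pdgfrb, Ank1, Fbxl7, Ppp1r3c, Hspa1a and Ttc19, and their falls lay between 1.44-fold and 2.33-fold. A gene that passed is named as called from here on, and levels are log2(signal + 16), a scale whose floor is 4. At an unadjusted p under 0.05 there were 1127 lower genes (7.71%) and 696 higher genes (4.76%), while the mean was lower for 48.7% and higher for 51.3% of all genes and the median change was 0.00724 on the log2 scale. The 7 calls turned to 0 without replicate 3 of the 0.5 ppm group, when 1551 genes still had an unadjusted p under 0.05. They became 288 (220 lower, 1.5% of genes, and 68 higher, 0.465%) when only the 9 arrays of both groups set the spread, so the count depends strongly on which arrays enter the fit.

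Pdgfrb encodes the beta receptor for platelet-derived growth factor, a receptor tyrosine kinase of fibroblasts, pericytes and smooth muscle. Its log2 level was 10.97, 10.87, 10.93 and 10.91 in the 4 bladders at 0.5 ppm and 11.86, 11.62, 11.91, 11.66 and 11.94 in the 5 water bladders. The treated bladders lay close together and all below every water bladder. Pdgfrb fell by 0.88 ± 0.13 (SE) on the log2 scale, which is 1.84-fold, with a limma adjusted p of 0.00689, the smallest of all genes tested. Both of its probe sets were lower, at -0.88 and -0.58. With every single-gene probe set tested in place of 1 a gene (34945), Pdgfrb was the only call (0.00286% of the probe sets), and it was called in 8 of the 9 fits that left out 1 array.

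Tmem200c, a gene for a transmembrane protein, fell the most of the 7. The log2 level of its brightest probe set was 7.32, 7.31, 6.78 and 7.53 at 0.5 ppm and 8.74, 8.51, 8.49, 8.46 and 8.08 in water. The groups did not overlap, and replicate 4 was the lowest of the treated bladders. The fall was 1.22 ± 0.21 (SE) on the log2 scale, or 2.33-fold, with a limma adjusted p of 0.0234. The array carries 3 probe sets for this gene, and their changes ranged from -1.22 to 0.55, so the fall belongs to the brightest probe set and not to each of them.

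Ank1 encodes ankyrin 1, which ties membrane proteins to the spectrin skeleton and has a short muscle form at the sarcoplasmic reticulum. Its log2 level was 12.92, 12.74, 13.38 and 12.98 at 0.5 ppm and 13.58, 13.99, 14.01, 14.07 and 13.58 in water. Every treated bladder lay below every water bladder, replicate 4 being the nearest to the water range. Ank1 fell by 0.84 ± 0.16 (SE) on the log2 scale, or 1.79-fold, with a limma adjusted p of 0.0496, just inside the threshold. All 4 of its probe sets were lower, from -0.84 to -0.16.

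Fbxl7 and Ppp1r3c encode regulatory subunits. Fbxl7 is a substrate receptor of an SCF ubiquitin ligase, and its log2 level was 7.74, 7.54, 8.05 and 7.75 at 0.5 ppm against 8.44, 8.52, 8.47, 8.46 and 8.50 in water. The water bladders lay close together, and the fall of 0.71 ± 0.12 (SE, limma adjusted p = 0.0234) exceeded the whole spread of the treated group. Of its 4 probe sets 3 were lower, down to -0.82, and 1 was at 0.04. Ppp1r3c directs protein phosphatase 1 to glycogen, and its log2 level was 10.53, 10.67, 10.51 and 10.34 at 0.5 ppm against 11.24, 11.32, 11.34, 11.17 and 10.91 in water. It fell by 0.68 ± 0.12 (SE, limma adjusted p = 0.0234), with no overlap of the groups and with both probe sets lower (-0.68 and -0.39).

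Ttc19, a mitochondrial protein needed for the assembly of respiratory complex III, showed the smallest of the called falls. In the 4 bladders at 0.5 ppm the log2 level was 8.75, 8.86, 8.94 and 8.84, and in water it was 9.34, 9.34, 9.46, 9.40 and 9.34. Both groups were tight and did not overlap, and the fall was 0.53 ± 0.10 (SE, limma adjusted p = 0.0496). Of its 3 probe sets 1 was lower and 2 were higher, up to 0.33, so this call too rests on the brightest probe set.

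**Figure D1:**
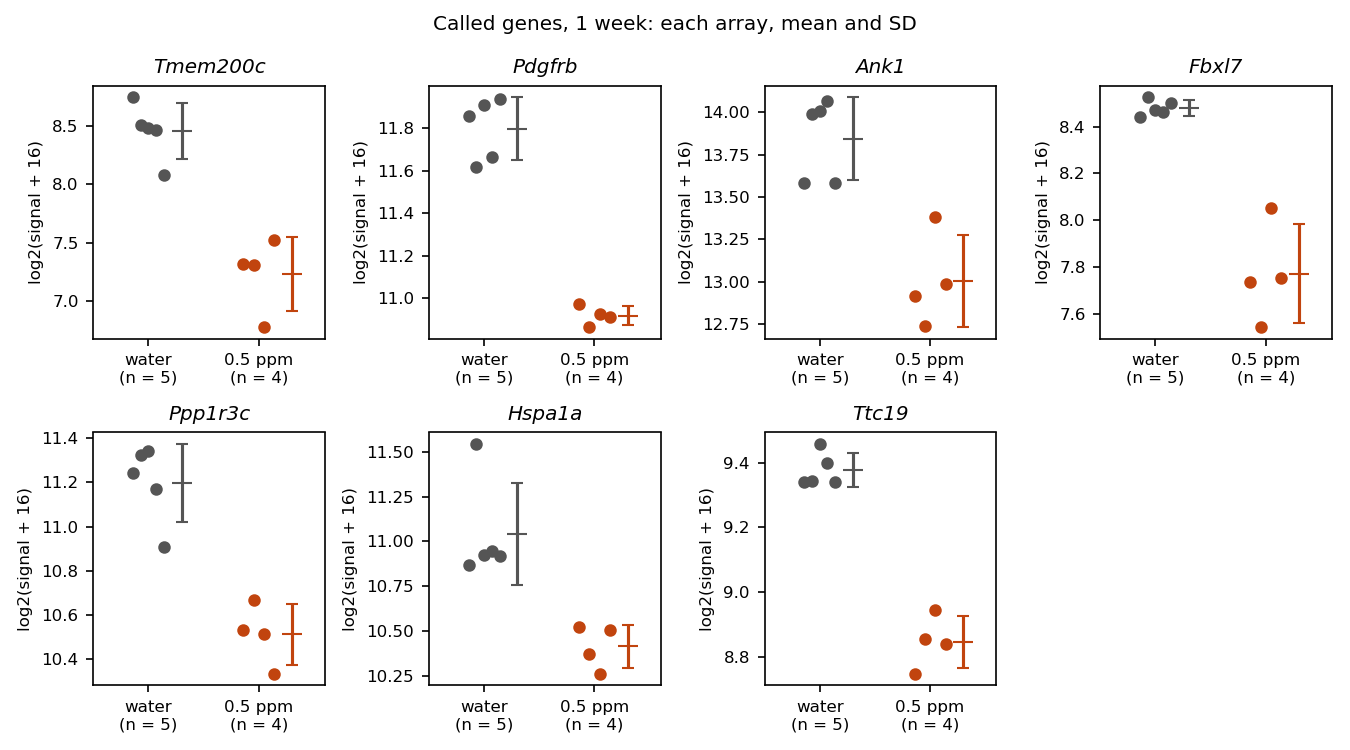
Log2(signal + 16) of the 7 called genes in each bladder after 1 week, with water (n = 5) in grey and 0.5 ppm arsenate (n = 4) in red, 1 point an array and the mean with its SD beside the points. In every panel the treated points lie below all water points, and in the Hspa1a panel 1 water bladder stands at 11.54, above the other water bladders.

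Hspa1a encodes an inducible cytosolic chaperone of the Hsp70 family, a textbook target of heat shock factor 1. Its log2 level was 10.52, 10.37, 10.26 and 10.50 at 0.5 ppm and 10.87, 11.54, 10.92, 10.95 and 10.92 in water. The treated bladders were all lower, and water replicate 2 stood above the other water bladders. Hspa1a fell by 0.63 ± 0.11 (SE) on the log2 scale, or 1.54-fold, with a limma adjusted p of 0.0234. Without water replicate 2 the change was -0.50 ± 0.09 (SE, limma adjusted p = 0.0510), just short of a call, in a fit that left Pdgfrb as the only call of the 7.

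Hspa1b, the neighbouring and nearly identical copy of Hspa1a, was looked at after its values had been seen. Its log2 level was 13.03 ± 0.11 (SD, n = 4) at 0.5 ppm and 13.08 ± 0.08 (SD, n = 5) in water, a difference of -0.05 ± 0.08 (SE, limma adjusted p = 0.864). Its 3 probe sets stood at -0.05, -0.21 and -0.28. Probes for such near-identical copies can bind both transcripts, so how the fall divides between them is uncertain on this array. The promoters are printed because these genes are known to be driven through heat shock elements, and because Hspd1, the gene of the mitochondrial chaperonin Hsp60, stood in the opposite direction. The sequences are from RefSeq on build GRCm38.p6, from 250 bases before the transcription start to 50 after it, and all lie on the minus strand. Hspa1a is at chr17:34972107-34972406, Hspa1b at chr17:34959189-34959488 and the Hspd1 window shown at chr1:55087883-55088182. Capitals mark GAANNTTC or TTCNNGAA, the paired units of a heat shock element, each of which reads the same on both strands.
Hspa1a: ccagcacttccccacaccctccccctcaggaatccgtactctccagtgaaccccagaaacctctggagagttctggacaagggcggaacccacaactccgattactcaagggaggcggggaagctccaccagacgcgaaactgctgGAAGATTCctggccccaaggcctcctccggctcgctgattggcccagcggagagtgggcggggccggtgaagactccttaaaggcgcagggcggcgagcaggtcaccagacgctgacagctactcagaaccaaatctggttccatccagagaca
Hspa1b: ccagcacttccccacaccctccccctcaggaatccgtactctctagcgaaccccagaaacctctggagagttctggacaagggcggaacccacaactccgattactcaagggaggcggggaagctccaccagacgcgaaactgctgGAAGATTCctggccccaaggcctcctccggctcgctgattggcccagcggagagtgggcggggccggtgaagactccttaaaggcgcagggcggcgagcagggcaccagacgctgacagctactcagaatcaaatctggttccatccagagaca
Hspd1: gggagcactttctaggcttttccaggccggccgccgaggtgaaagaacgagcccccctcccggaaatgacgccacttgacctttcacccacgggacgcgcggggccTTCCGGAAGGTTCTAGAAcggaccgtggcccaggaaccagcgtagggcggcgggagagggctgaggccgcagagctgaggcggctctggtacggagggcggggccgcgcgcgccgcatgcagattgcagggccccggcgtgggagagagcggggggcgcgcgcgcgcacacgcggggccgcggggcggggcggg
The Hspa1a and Hspa1b windows differed at 4 of 300 bases (98.67% identity), and each held 1 match at the same place. The Hspd1 window shown is window 2 of that gene, and it held 3 matches that overlap one another in a single run. Window 1, at chr1:55088194-55088493, takes in the annotated 5' end of the gene at 55088243 and held 0. The matches thus belong to 1 of the windows and not to each of them. At least 1 match was found in 4946 of 32851 promoter windows of this length (15.06%) and at least 3 in 84 (0.2557%). A match describes the letters and says nothing of whether a factor bound there.

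The heat shock genes as a list split both ways. Of 22 genes of the list tested, 1 was called, 9 had a lower mean and 13 a higher one, and their median change was 0.08 against 0.00724 over all genes. Hspd1 was at 11.11, 11.27, 11.44 and 10.96 at 0.5 ppm and at 10.66, 10.70, 10.49, 10.52 and 10.88 in water. All treated bladders were above all water bladders, at a difference of 0.54 ± 0.15 (SE) that was not called (limma adjusted p = 0.15). Beside Hspa1a, both small heat shock proteins with the smallest p stood lower, Hspb8 at -0.40 ± 0.14 and Cryab at -0.32 ± 0.11 (SE, limma adjusted p = 0.242 and 0.256). Each had 1 of its 3 probe sets higher, at 0.11 for Hspb8 and 0.14 for Cryab. The small heat shock gene Hspb1, named after its value was seen, was at -0.02 ± 0.12 (SE). At an unadjusted p under 0.05 the list had 3 lower and 6 higher members, beside 7.71% and 4.76% of all genes. The 6 were Hspd1 and, named after their values were seen, Hspa4 (0.50), Dnaja1 (0.46), Hsph1 (0.35), Chordc1 (0.35) and Hsp90aa1 (0.34), chaperones or their partners in the cytosol. In the fit on the 9 arrays alone, which called 1.97% of all genes, Hspa1a and Hspb8 were lower and Hspd1 was higher.

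No gene rose past the threshold, and the 6 genes of smallest p in that direction are given as uncalled differences. Klhl14, a kelch adaptor protein, was at 7.69, 7.55, 7.54 and 7.91 at 0.5 ppm and at 7.18, 6.66, 6.90, 6.27 and 6.82 in water. The difference was 0.91 ± 0.19 (SE, limma adjusted p = 0.0618) with no overlap. Cacybp, a binding partner of calcyclin and of the ubiquitin ligase Siah1, was at 9.58, 9.59, 10.05 and 9.56 against 9.22, 9.15, 8.79, 8.89 and 9.02 in water. It differed by 0.68 ± 0.15 (SE, limma adjusted p = 0.0706), and replicate 4 stood above the other treated bladders. Lipo3, a lipase family gene (0.74 ± 0.18), Fra10ac1 (0.64 ± 0.16) and Alg8, a glucosyltransferase of N-glycan assembly (0.41 ± 0.10), were likewise higher in all 4 treated bladders than in all 5 water bladders. Over all genes, the treated bladders lay above every water bladder for 391 genes (2.67%) and below every water bladder for 597 (4.08%).

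Cldn3, the gene of the tight junction protein claudin 3, had the largest of these uncalled differences. Signals on the log2 scale were 6.94, 6.41, 5.18 and 6.44 at 0.5 ppm and 4.58, 4.92, 4.86, 4.96 and 4.87 in water. The water bladders sat close to the floor of 4, and the treated bladders spread widely above them. The difference was 1.40 ± 0.38 (SE, limma adjusted p = 0.136), and its 4 probe sets were all higher, from 0.13 to 1.40. At the other doses of the same harvest its mean log2 level was 4.71 at 2 ppm, 5.17 at 10 ppm and 4.87 at 50 ppm.

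Matrix genes were mostly lower. Of 28 collagen and matrix genes tested none was called, 24 had a lower mean, and 13 were lower and 1 higher at an unadjusted p under 0.05. Over all genes 7.71% were lower and 4.76% higher at that p. Their median change was -0.31 for the matrix list. The mean log2 level over the list overlapped between groups, at 12.17 to 12.50 at 0.5 ppm and 12.37 to 12.70 in water. Fbln5, which encodes a protein of elastic fibre assembly, was at 12.36, 12.04, 12.20 and 12.15 at 0.5 ppm and at 12.71, 12.51, 12.79, 12.90 and 12.75 in water. The groups did not overlap, the difference was -0.54 ± 0.12 (SE, limma adjusted p = 0.0706), and both probe sets were lower. Col4a2, a chain of basement membrane collagen, was at 12.13, 12.15, 12.51 and 12.08 against 12.51, 12.90, 12.87, 12.98 and 12.93 in water. Treated replicate 4 and water replicate 1 met at 12.51, and the difference was -0.62 ± 0.19 (SE, limma adjusted p = 0.194). Mmp2, a gelatinase, stood at -0.41 ± 0.13 and Col12a1 at -0.53 ± 0.19 (SE). The fit on the 9 arrays alone had Mmp2, Fbln5, Col1a1, Col4a2 and Col6a1 lower and no member higher.

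Fibroblast genes held 1 call and were otherwise mixed. Of 15 genes Pdgfrb was the call and 11 had a lower mean, with a median change of -0.12. At an unadjusted p under 0.05, 3 were lower and none higher, beside 7.71% and 4.76% of all genes. Pi16, a marker of adventitial fibroblasts, was at 12.75, 12.65, 12.81 and 12.44 at 0.5 ppm and at 12.87, 13.18, 13.04, 13.31 and 13.31 in water. Its groups did not overlap, at -0.48 ± 0.16 (SE, limma adjusted p = 0.228). Col1a1, the main chain of type I collagen, was also below every water bladder, at -0.46 ± 0.20 (SE, limma adjusted p = 0.355). Other general fibroblast markers, named after their values were seen, lay nearer 0, with Dcn (decorin) at 0.05 ± 0.10, Lum (lumican) at -0.07 ± 0.21, Col3a1 at -0.09 ± 0.11 and Vim (vimentin) at -0.08 ± 0.10 (SE), and Fap was at 0.33 ± 0.31. Per array, the mean log2 level over the 15 fibroblast genes was 11.97 to 12.20 at 0.5 ppm and 12.21 to 12.34 in water. In whole bladders, fewer cells of a type and less RNA per cell cannot be told apart.

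Of 17 endothelial genes none was called and 15 had a lower mean, with a median change of -0.19. At an unadjusted p under 0.05, 6 were lower and 1 higher, beside 7.71% and 4.76% of all genes. The mean log2 level over the list overlapped between groups, at 8.48 to 8.68 at 0.5 ppm and 8.62 to 8.88 in water. Sox17 and Sox18, transcription factors of endothelial cells, lay below all water bladders in every treated bladder. Sox18 was at 9.36, 9.16, 9.28 and 9.16 against 9.69, 9.73, 9.89, 9.84 and 9.69 in water, a difference of -0.53 ± 0.19 (SE, limma adjusted p = 0.255). Sox17 differed by -0.61 ± 0.19 and Vwf, the von Willebrand factor gene, by -0.52 ± 0.19 (SE, limma adjusted p = 0.197 and 0.264). Both members with a higher mean, named after their values were seen, were Lyve1, of lymphatic vessels, at 0.42 ± 0.20 and Erg at 0.45 ± 0.36 (SE). The VEGF receptor Kdr and the angiopoietin receptor Tek, also named after their values were seen, were at -0.04 ± 0.15 and -0.08 ± 0.19 (SE). Tie1 and Pecam1, chosen the same way, were at -0.42 ± 0.18 and -0.26 ± 0.12 (SE). Esam was at -0.25 ± 0.11 (SE).

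Of 16 smooth muscle genes none was called and 13 had a lower mean, with a median change of -0.17. Myocd, the coactivator of smooth muscle genes, was at 10.05, 9.84, 11.00 and 10.50 at 0.5 ppm and at 10.44, 11.06, 11.16, 11.00 and 10.86 in water. The groups overlapped, since treated replicate 4 lay within the water range, and the difference was -0.56 ± 0.22 (SE, limma adjusted p = 0.302). Smtn (smoothelin) stood at -0.47 ± 0.16, Synpo2 at -0.38 ± 0.19 and Lmod1 (leiomodin 1) at -0.35 ± 0.17 (SE), each with overlapping groups. Some contractile genes, chosen here after their values were seen, differed little. Acta2 (smooth muscle actin) was at 0.06 ± 0.13, Tagln at 0.08 ± 0.12, Actg2 at -0.03 ± 0.12 and Cnn1 (calponin) at -0.005 ± 0.12 (SE). Others chosen the same way were lower but uncalled, with Des at -0.30 ± 0.15, Myh11 at -0.19 ± 0.20 and Cald1 at -0.14 ± 0.19 (SE). The mean log2 level over the 16 genes ran from 13.08 to 13.65 at 0.5 ppm and from 13.22 to 13.62 in water, so the treated bladders spanned the whole water range.

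Urothelial genes stood on the other side. All 19 genes of the superficial and intermediate urothelium had a higher mean at 0.5 ppm, with a median change of 0.20, and none was called. At an unadjusted p under 0.05, 7 of them were higher, beside 4.76% of all genes. Snx31, a sorting nexin that binds uroplakins, was at 13.28, 13.39, 13.16 and 13.32 at 0.5 ppm and at 13.23, 12.88, 12.94, 13.03 and 12.98 in water. Only treated replicate 4 reached into the water range, and the difference was 0.28 ± 0.09 (SE, limma adjusted p = 0.225). Foxa1, a transcription factor of urothelial differentiation, was above every water bladder in all 4 treated bladders, at 0.32 ± 0.13 (SE, limma adjusted p = 0.307). Krt20, the keratin of superficial cells, stood at 0.37 ± 0.15 and Cldn4 at 0.29 ± 0.12 (SE). The mean log2 level over the 19 genes was 13.34 to 13.64 at 0.5 ppm and 13.18 to 13.33 in water, without overlap, and in both groups these markers of the bladder lining were far above the floor. The basal urothelium list had 10 of 14 means higher and a median of 0.11. The mesothelium list had 7 of 8 higher and a median of 0.13, but its members Upk3b and Krt19 also belong to the superficial and intermediate list. Gpm6a was at 0.46 ± 0.27 and Lrrn4 at 0.30 ± 0.14 (SE). Wt1 and Msln, named after their values were seen, were at 0.13 ± 0.22 and -0.03 ± 0.15 (SE). The mean log2 level over the mesothelium list overlapped between groups, at 10.05 to 10.22 at 0.5 ppm and 9.65 to 10.23 in water.

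**Figure D2:**
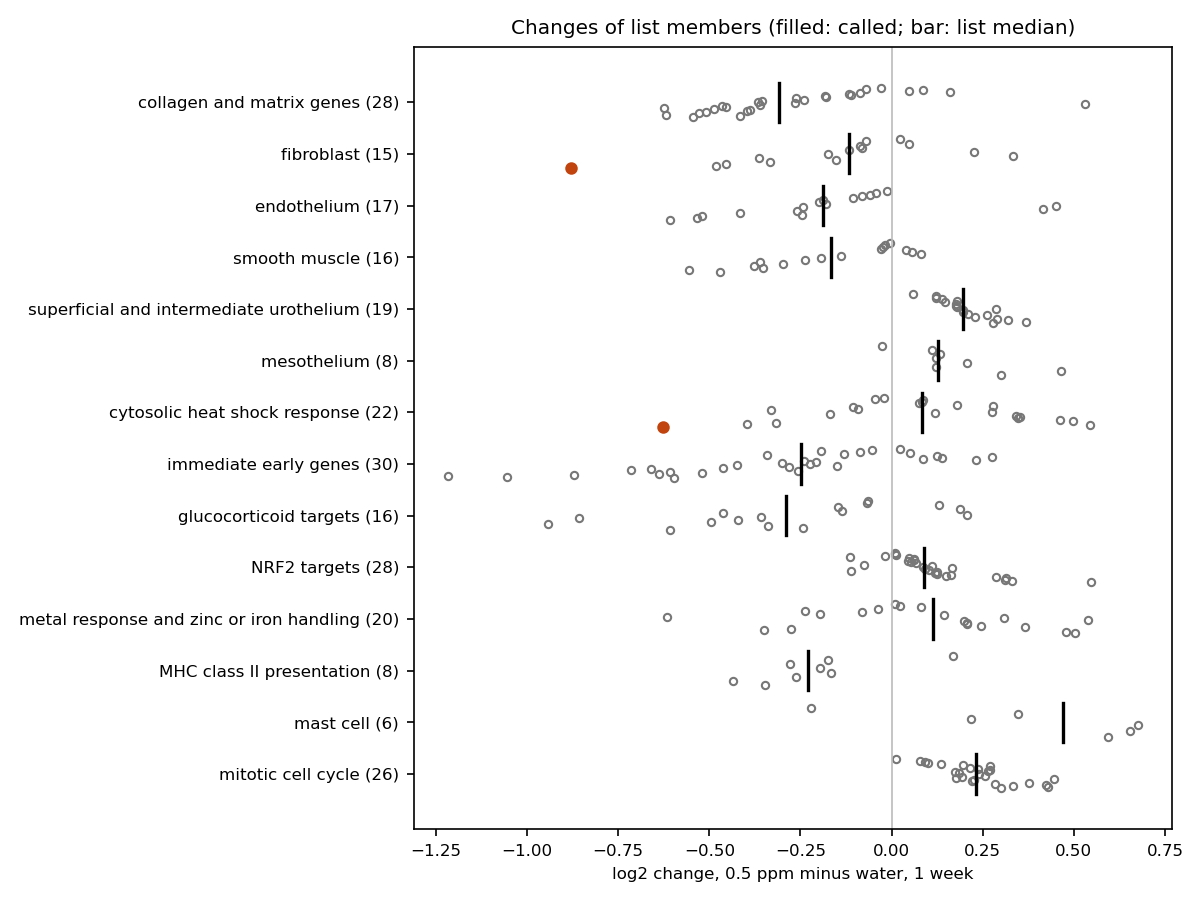
Log2 change at 0.5 ppm against water after 1 week for each tested member of 14 gene lists, 1 point a gene, with the number of genes in brackets and the list median as a black bar. Filled red points are called (Pdgfrb among fibroblast genes, Hspa1a among heat shock genes); the medians of the matrix, immediate early and glucocorticoid lists lie left of 0 and those of the urothelium and mast cell lists right of it.

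Genes that answer quickly to stimulation were mostly lower. Of 30 immediate early genes none was called and 23 had a lower mean, with a median change of -0.25. At an unadjusted p under 0.05, 9 were lower and none higher, beside 7.71% and 4.76% of all genes. The mean log2 level over the list overlapped between groups, at 9.09 to 9.46 at 0.5 ppm and 9.25 to 10.04 in water. Egr1, a zinc finger transcription factor of the first wave, was at 9.68, 10.24, 9.30 and 9.71 at 0.5 ppm and at 9.90, 11.46, 10.45, 11.05 and 11.08 in water. Water replicate 1 lay among the treated bladders, and the difference of -1.06 ± 0.31 (SE) had a limma adjusted p of 0.178. Nr4a1, a nuclear receptor of the same wave, was at 9.05, 8.74, 8.15 and 8.43 against 9.26, 9.25, 9.36, 9.86 and 11.31. The groups did not overlap, but water replicate 5 lay far above the rest, and the difference was -1.22 ± 0.37 (SE, limma adjusted p = 0.187). Jund, an AP-1 subunit, stood at -0.60 ± 0.16 without overlap, while Ccn2, a target of YAP and SRF, stood at -0.87 ± 0.28 with overlap (SE, limma adjusted p = 0.141 and 0.201).

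Of 16 glucocorticoid targets none was called, 13 had a lower mean, and the median change was -0.29. The mean log2 level over the list overlapped between groups, at 9.64 to 9.91 at 0.5 ppm and 9.83 to 10.29 in water. Cebpd, a transcription factor that glucocorticoids induce, was at 9.87, 9.97, 9.57 and 9.78 at 0.5 ppm and at 10.14, 10.36, 10.63, 10.37 and 10.52 in water. The groups did not overlap, at -0.61 ± 0.15 (SE, limma adjusted p = 0.120), although its other probe set stood at 0.31. Nfkbia, the NF-kB inhibitor, was also lower in every treated bladder than in any water bladder, at -0.24 ± 0.07 (SE, limma adjusted p = 0.175), with all 5 probe sets lower. Fam107a stood at -0.94 ± 0.36 and Errfi1, a feedback inhibitor of the EGF receptor, at -0.34 ± 0.12 (SE).

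The genes best known to respond to arsenic or metals mostly differed little at their brightest probe sets. Hmox1, the heme oxygenase gene induced by arsenite, was at 8.56, 8.76, 8.47 and 8.44 at 0.5 ppm and at 7.90, 8.32, 8.63, 8.64 and 8.48 in water. The treated values lay largely inside the water range, and the difference was 0.17 ± 0.18 (SE, limma adjusted p = 0.756). Among other NRF2 targets, Nqo1 differed by 0.06 ± 0.13, Gclm by 0.10 ± 0.10 and Txnrd1 by 0.12 ± 0.10 (SE), and none was called. A dimmer Gclm probe set was at 0.64 ± 0.31, and those of Txnrd1 were at 0.09 ± 0.18 and 0.72 ± 0.29 (SE). At an unadjusted p under 0.05, where 4.76% of all genes were higher, 5 of 28 NRF2 targets were higher. By mean, 24 of the 28 were higher, with a median change of 0.09. The largest was Gstm3, a glutathione transferase, at 0.55 ± 0.22, and Gclc, the catalytic subunit of glutathione synthesis, was at 0.31 ± 0.14 (SE, limma adjusted p = 0.311 and 0.341).

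The metallothionein genes Mt1 and Mt2 differed by 0.02 ± 0.12 and 0.21 ± 0.13 (SE, limma adjusted p = 0.960 and 0.519). Mt2 was at 12.24, 12.32, 12.17 and 12.30 at 0.5 ppm and at 12.05, 11.87, 12.13, 11.83 and 12.37 in water. Water replicate 5 lay above all treated bladders, and the rest of the water bladders lay below them. The zinc exporter gene Slc30a1 was at 9.11, 9.36, 9.75 and 9.32 at 0.5 ppm and at 8.09, 9.05, 9.24, 9.01 and 9.13 in water. Water replicate 1 was far below the rest, and the difference was 0.48 ± 0.21 (SE, limma adjusted p = 0.338). As3mt, the arsenic methyltransferase gene, was at 8.67 ± 0.12 (SD, n = 4) and 8.73 ± 0.08 (SD, n = 5). Of 20 metal-handling genes none was called and 13 had a higher mean, and of 23 genes for arsenic uptake, methylation and efflux none was called and 14 had a lower mean.

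Among immune lists, the MHC class II genes had a median change of -0.23 over 8 genes, 7 of them lower and none called. H2-Eb1 stood at -0.35 ± 0.13 and H2-Ab1 at -0.43 ± 0.18 (SE), and their groups overlapped. Mast cell genes had the highest median of all 42 lists, 0.47 over 6 genes, with 5 higher and none called. Cma1, a mast cell chymase, was at 7.78, 8.07, 7.82 and 7.74 at 0.5 ppm and at 7.12, 7.02, 6.95, 7.43 and 7.77 in water. Water replicate 5 reached the treated values, and the difference was 0.59 ± 0.17 (SE, limma adjusted p = 0.175). The member on the other side was Kit, the stem cell factor receptor of mast cells, at -0.22 ± 0.17 (SE), named after its value was seen. All 26 mitotic cell cycle genes had a higher mean, with a median change of 0.23, but none reached an unadjusted p under 0.05, and the mean log2 level over the list overlapped between groups (7.04 to 7.96 against 6.68 to 7.57).

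Markers of liver and kidney were also lower at 0.5 ppm, with overlapping groups. Of 22 liver genes 17 had a lower mean at 0.5 ppm with a median change of -0.51, and the mean log2 level over the list ran from 7.04 to 8.60 at 0.5 ppm and from 7.12 to 9.01 in water. Of 11 kidney genes 9 had a lower mean, with a median of -0.64 and list levels of 5.10 to 5.93 against 5.75 to 6.69. None was called. With the liver list level as a covariate 5 genes were called, namely Fbxl7, Hspa1a, Pdgfrb, Ppp1r3c and Tmem200c. No fit was run with the kidney list as a covariate. The arrays were alike in RNA integrity number (9.25 ± 0.26 at 0.5 ppm, SD, n = 4, and 9.28 ± 0.33 in water, SD, n = 5, exact permutation p = 0.913, two-sided). The hybridization controls spread more at 0.5 ppm (11.66 to 12.64) than in water (11.81 to 11.97, exact permutation p = 0.333), and with them as a covariate 41 genes were called, the 7 among them. Over the 7 array measures compared, the Benjamini-Hochberg adjusted permutation p was 0.992 for each, and the smallest p these groups allow is 0.00794.

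The other doses of the 1-week harvest were compared with the same 5 water arrays, so their differences are given side by side and not counted as independent. Pdgfrb differed from water by -0.51 at 2 ppm, -0.77 at 10 ppm and -0.26 at 50 ppm (SE 0.13 for each, 5 arrays against 5), and the difference at 10 ppm was called (limma adjusted p = 0.00480). Ank1 stood at -0.45, -0.90 and -0.38 (SE 0.16) and was called at 10 ppm (limma adjusted p = 0.00572). Ppp1r3c stood at -0.50, -0.70 and -0.70 (SE 0.12) and was called at 10 and 50 ppm (limma adjusted p = 0.00523 and 0.00748). These 3 genes were thus below water at each dose, and for none of them did the size follow the order of the doses.

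Hspa1a stood at -0.39, -0.31 and -0.27 (SE 0.11) and was called at none of these doses. From 0.5 ppm on, its fall was smaller at each higher dose, and a trend with dose was not tested. Tmem200c stood at -0.32, -0.76 and -0.06 (SE 0.20), Fbxl7 at -0.21, -0.43 and -0.08 (SE 0.12) and Ttc19 at -0.07, -0.35 and 0.05 (SE 0.10), also without a call. Hspa1a, Tmem200c and Fbxl7 were thus below water at each dose too, and Ttc19 at all but 50 ppm. Klhl14, Cacybp and Lipo3, uncalled at 0.5 ppm, were higher at 10 ppm by 0.98, 0.65 and 0.69 and called there (limma adjusted p = 0.0110, 0.0266 and 0.0459). In the direct contrast of 0.5 ppm with the mean of 2, 10 and 50 ppm, limma called none of 14618 genes (0%), with 1222 at an unadjusted p under 0.05. A fit that adjusts for RNA integrity leaves out 2 arrays at 10 ppm without an integrity number, and it gave 731 such genes and 0 calls. The integrity numbers ran from 7.2 to 9.7 at 2 ppm, against 8.9 to 9.5 at 0.5 ppm. Without that adjustment, the smallest adjusted p-values were those of Rnf214 (-0.47, adjusted p = 0.0527), Tnnt2 (-0.48, adjusted p = 0.0527) and Gpr37l1 (-0.83, adjusted p = 0.0835).

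**Figure D3:**
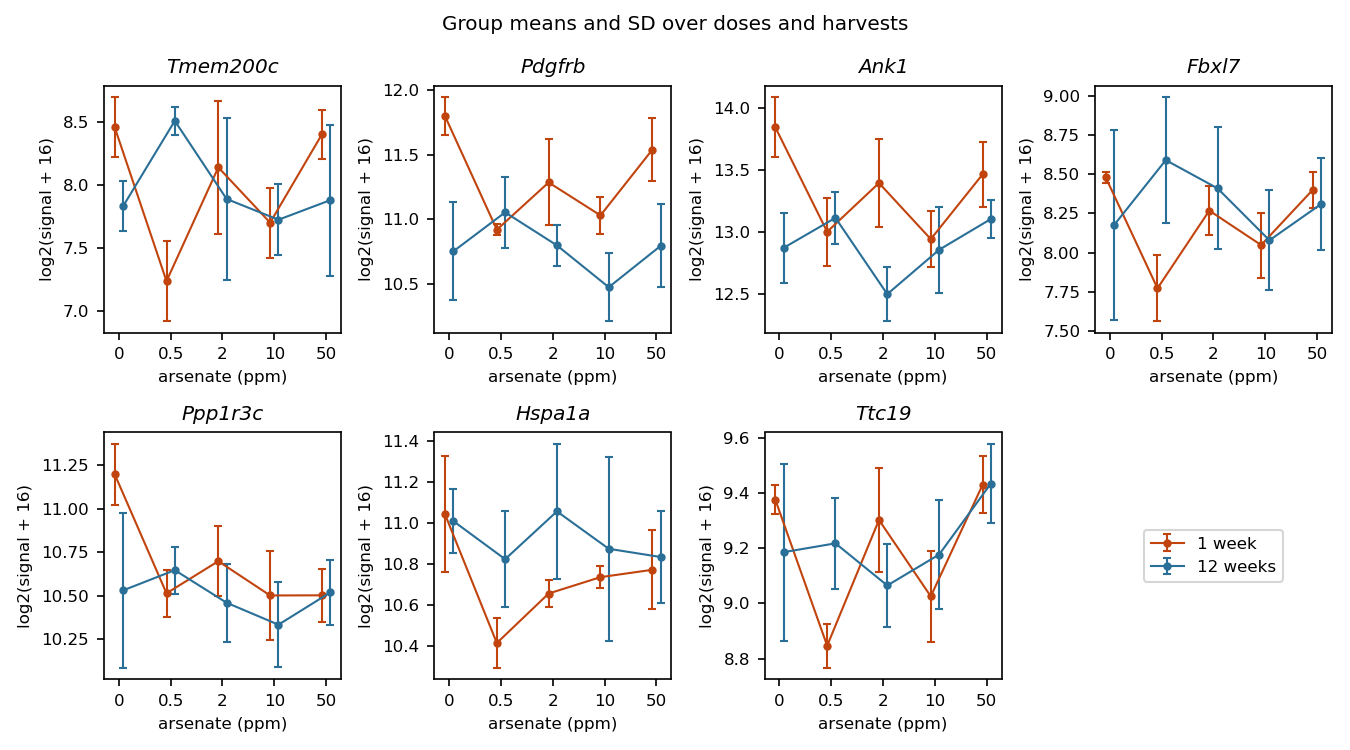
Group mean and SD of log2(signal + 16) for the 7 called genes at 0, 0.5, 2, 10 and 50 ppm arsenate, with 1 week in red and 12 weeks in blue (4 arrays at 0.5 ppm and 1 week, 5 in every other group; the doses are evenly spaced, not to scale). At 1 week the 0.5 ppm mean lies below the water mean in each panel; at 12 weeks the 0.5 ppm mean lies above it for every gene but Hspa1a.

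The same dose was also given for 12 weeks to other females of the strain with their own water controls, 5 against 5, which allows a test of the difference between harvests. These mice were 155 days old, against 76 days at 1 week, so length of exposure and age cannot be told apart. Each group of the series also has its own unexplained first number in the mouse label. Whatever that number marks cannot be told apart from dose or harvest. Of 14618 genes, 674 (4.61%) differed between harvests in their change at 0.5 ppm, 464 of them more negative at 1 week (3.17%) and 210 more positive (1.44%). Of the 7 called genes 6 were among them. Those 7 were chosen by the same 1-week difference that enters this contrast, so their count here is not independent of the choice. Pdgfrb stood at -0.88 after 1 week and at 0.30 ± 0.17 (SE) after 12 weeks, a difference of -1.18 ± 0.22 (limma adjusted p = 0.00215). Tmem200c stood at -1.22 and 0.68 ± 0.25, a difference of -1.90 ± 0.34 (limma adjusted p = 0.00122). Hspa1a was the exception, at -0.63 and -0.19 ± 0.17 with a difference of -0.44 ± 0.21 (limma adjusted p = 0.240). Water levels enter these differences too. The mean log2 level of Pdgfrb was 11.80 in water after 1 week and 10.75 after 12 weeks, and 10.92 and 11.05 at 0.5 ppm. For Tmem200c it was 8.46 and 7.83 in water and 7.24 and 8.51 at 0.5 ppm. For Hspa1a it was 11.04 and 11.01 in water and 10.41 and 10.82 at 0.5 ppm. Which group moved between harvests was not tested.

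The remaining 4 called genes were likewise more negative at 1 week. The difference between harvests was -1.08 ± 0.23 for Ank1, -1.12 ± 0.28 for Fbxl7, -0.80 ± 0.21 for Ppp1r3c and -0.56 ± 0.17 for Ttc19 (SE, limma adjusted p = 0.00494, 0.0172, 0.0201 and 0.0401). Among uncalled genes, Klhl14 differed by 1.09 ± 0.25, Tnnt2 by -1.28 ± 0.19 and Col1a1 by -1.42 ± 0.33 (SE, limma adjusted p = 0.0110, 0.000296 and 0.0110). Col1a1 was lower after 1 week (-0.46) and higher after 12 weeks (0.97 ± 0.24), the latter not called (limma adjusted p = 0.0532). The extremes were Gria1, a glutamate receptor subunit, at -2.32, Cidea, a lipid droplet protein, at -2.26, and Cmya5, a muscle protein, at -2.22, and on the other side 4930523O13Rik at 1.73.

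By list, the collagen and matrix genes had 9 of 28 members more negative at 1 week, the smooth muscle genes 4 of 16 and the endothelial genes 4 of 17, with none more positive. The superficial and intermediate urothelium had 4 of 19 more positive at 1 week and none more negative. Of all genes tested, 3.17% were more negative at 1 week and 1.44% more positive. The list medians after 12 weeks were 0.34 for matrix, 0.22 for smooth muscle, 0.31 for endothelium and -0.23 for urothelium, against -0.31, -0.17, -0.19 and 0.20 after 1 week and 0.000769 over all genes after 12 weeks. Matrix, muscle and vessel medians were thus below 0 at 1 week and above 0 at 12 weeks, and the urothelial median the reverse. Leaving out replicate 3 of the 0.5 ppm group at 1 week lowered the 674 genes to 260, replicate 2 to 275, replicate 5 to 413, and water replicate 2 to 362.

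**Figure D4:**
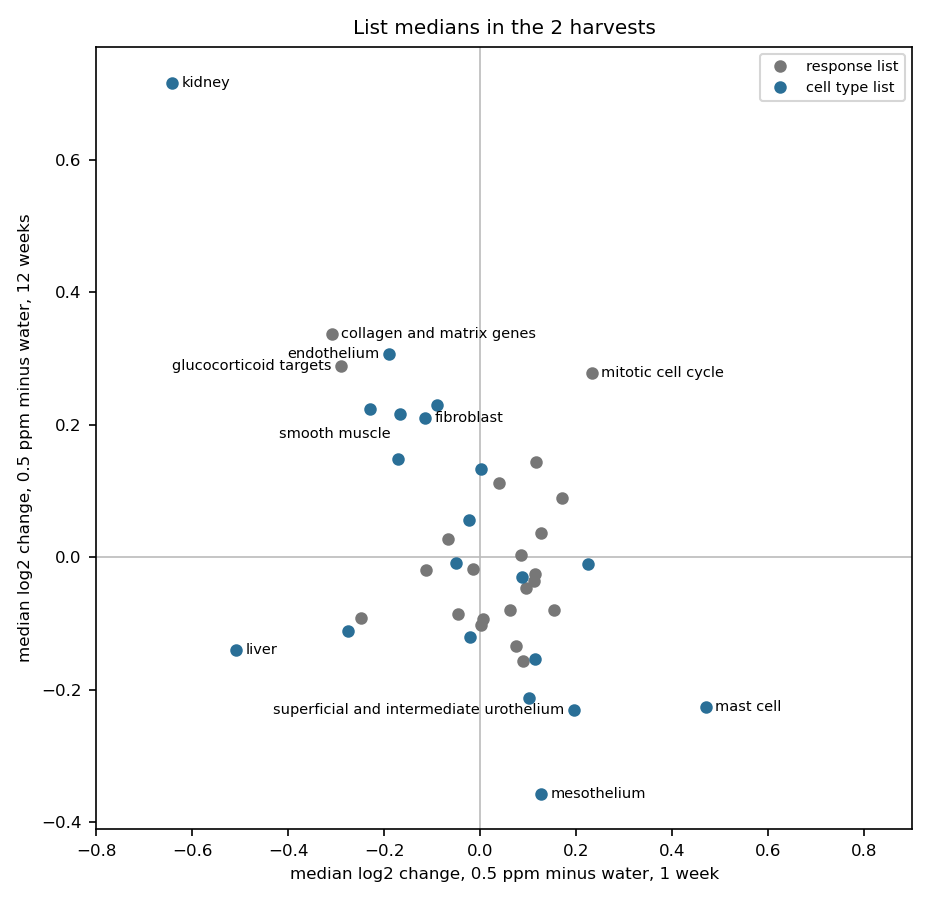
Median log2 change of each of 42 gene lists at 0.5 ppm against water, after 1 week on the x axis and after 12 weeks on the y axis, with response lists in grey and cell type lists in blue. Matrix, endothelium, smooth muscle and glucocorticoid lists lie in the upper left, and superficial urothelium, mesothelium and mast cell lists in the lower right; lists share genes, and the points are not replicates.

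The number of calls changed with single arrays. Without replicate 2 of the 0.5 ppm group or without water replicate 2, 3 or 4, Pdgfrb was the only call, and without replicate 5 of the 0.5 ppm group Pdgfrb and Tmem200c were left. Without replicate 4 of the 0.5 ppm group 34 genes were called and without water replicate 1 there were 20, all 7 included each time. Both of these arrays lay toward the other group for Col4a2 and Synpo2. Weighting the arrays by their spread gave 402 calls, 324 lower and 78 higher.

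**Figure D5:**
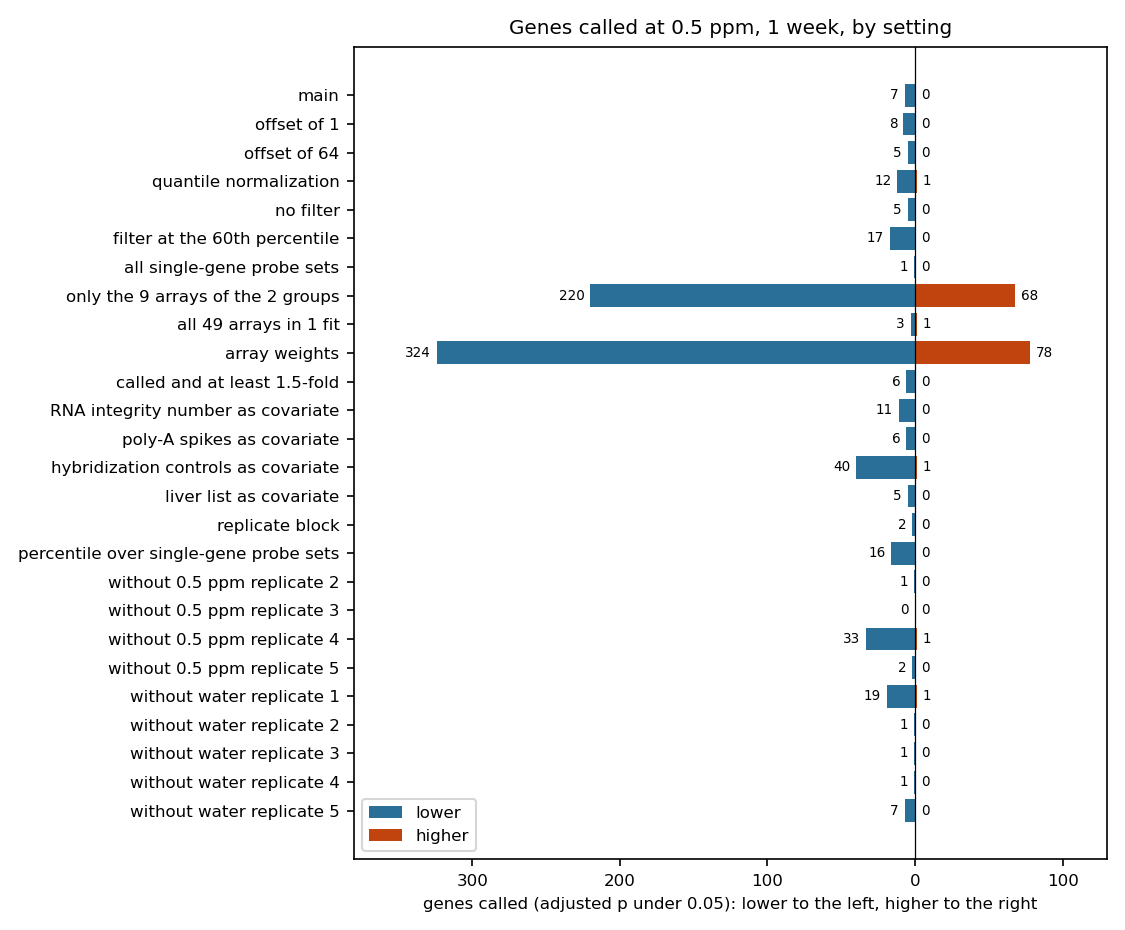
Genes called at 0.5 ppm against water after 1 week under each setting, with lower genes as blue bars to the left and higher genes as red bars to the right, and the count printed at the end of each bar. The first bar (7 lower, 0 higher) is the reported result; the counts run from 0 without replicate 3 of the 0.5 ppm group to 402 with array weights, and lower calls outnumber higher ones wherever there are calls.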

How the data were processed

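The submitters' processing notes name GCOS 1.0. The deposited value of each of 45101 probe sets is taken as a linear intensity (signal) that the authors had scaled, since the trimmed mean without the outer 2% at each end is 500.0 on all arrays; GCOS settings: not given in the sources used here. GEO's platform annotation gave 34945 probe sets 1 gene, 932 several genes and 9160 none, and 64 are controls. For each of 18193 genes the probe set with the highest mean over the 49 arrays was kept, if above the 40th percentile of an array in at least 4 arrays (14618 genes). Values were tested as log2(value + 16), so fold changes are on that scale and understate those of dim genes. limma 3.58.1 in R 4.3.3 fitted the 24 arrays of the 1-week harvest as group means (trend in eBayes), with Benjamini-Hochberg adjustment over all genes and a threshold of 0.05. The difference between harvests is an interaction over 49 arrays.

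Named genes were the called genes, up to 10 each way and filled to 6 with uncalled genes, the 4 members with the smallest p from each list described, 8 genes known for arsenic or metals, and up to 3 genes each way from the other 2 contrasts. The members and lists were chosen with earlier results of these data known. In simulated data for this comparison, 200 of 14618 genes were changed. There limma called 55.2% of genes changed by 1.5-fold, 88.1% by 2-fold and 98.5% by 4-fold, and 12 of 173 calls were false. The measured bladders gave 7 calls, and with fewer calls the Benjamini-Hochberg adjustment is stricter. These rates thus describe the simulation only, and the rates in the measured data were not tested. The number of arrays limits the precision, and same-numbered mice were treated as unpaired.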

Additional observations from a re-analysis of the deposited data

Results flagged for a closer look

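In all, 13 of the 180 sets of arrays examined held an array set apart from its group by Dixon's 95% criterion, which chance meets in about 1 group in 20. In the water group, replicate 2 was high for Hspa1a, at 11.54 where the others lay between 10.87 and 10.95. Water replicate 1 was low for Slc30a1 (8.09), Col4a2 (12.51), Synpo2 (12.15) and Cldn3 (4.58, near the floor), and replicate 5 was low for Cldn4 (11.92). Water replicate 2 was also high for the difference between the 3' and 5' Actb probe sets (0.30). At 0.5 ppm, replicate 4 was high for Cacybp (10.05), Col4a2 (12.51) and Synpo2 (12.77). Replicate 3 was low for Sox17 (7.88) and Lmod1 (10.02), and replicate 5 for Muc16 (6.91).

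The change at 0.5 ppm differed between the harvests for 674 of 14618 genes (4.61%) in the limma interaction, given here as the log2 change at 1 week minus that at 12 weeks. Some named genes were taken for this very difference and most others by their p at 1 week, so their share is raised by the choice. It was 33 of the 83 named genes. Among the called genes these were Tmem200c (-1.90), Pdgfrb (-1.18), Fbxl7 (-1.12), Ank1 (-1.08), Ppp1r3c (-0.80) and Ttc19 (-0.56). Matrix genes with a difference were Col1a1 (-1.42), Col12a1 (-1.08), Col4a2 (-0.96), Fbln5 (-0.84) and Mmp2 (-0.79). In muscle and vessels they were Myocd (-1.33), Synpo2 (-1.06), Lmod1 (-1.06), Sox17 (-0.95) and Vwf (-0.82). In the urothelium and mesothelium the values were positive for Foxa1 (0.65), Snx31 (0.59) and Lrrn4 (0.80). Among stress, glucocorticoid and metal genes they were Fam107a (-1.90), Cebpd (-1.09), Atp7a (-0.99) and Hspb8 (-0.68). The others were Gria1 (-2.32), Cidea (-2.26), Cmya5 (-2.22), Gpr37l1 (-1.58), Tnnt2 (-1.28) and Rnf214 (-0.75), all more negative at 1 week, and 4930523O13Rik (1.73), 4930417H01Rik (1.47), Gm6787 (1.39) and Klhl14 (1.09), all more positive.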

How the results depend on the processing

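Against 7 calls, all lower, the 0.5 ppm comparison gave 13 with quantile normalization, 17 with the 60th percentile as the filter, 11 with the RNA integrity number and 41 with the hybridization controls as a covariate, 288 on the 9 arrays alone and 402 with array weights. It gave 1 with all single-gene probe sets and 4 with all 49 arrays in 1 fit. A percentile taken over single-gene probe sets only, chosen after seeing the data, gave 16. The cause of these shifts was not tested. Offsets of 1 and 64, no filter, a minimum of 1.5-fold, the poly-A spikes and the liver list gave 5 to 8. Leaving out 1 array gave 0 to 34 calls. The contrast with the other doses gave 0 to 1 when a 0.5 ppm array was left out, the 1 being without replicate 4, and the difference between harvests gave 260 to 1007 in place of 674.

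Mice of the groups share the numbers 2 to 5. The deviations of same-numbered arrays correlated at -0.08, 0.15, -0.09 and -0.07, so no general pairing by number was seen. Correlations over all genes cannot show a link that touches only some genes. The replicate block left 2 calls, Hspa1a and Pdgfrb.

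Of the named genes, the uncalled change of Mt1 turned to -0.016 with array weights and to -0.019 with the hybridization controls as a covariate, and ranged from -0.028 to 0.11 when 1 array was left out. That of Nqo1 ranged from -0.039 to 0.16. No other named gene changed sign in the settings run. Dim genes near the floor of 4, such as Cldn3 in water, are measured least precisely, and 4 against 5 arrays limit every comparison.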

Other observations

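Lists not described above held no called gene. Skeletal muscle genes had a lower mean for 10 of 14 members, with a median change of -0.17, and Ckm and Tnnt3 were lower in the fit on the 9 arrays alone. Neuron and Schwann cell genes had a lower mean for 10 of 12 members and a median of -0.27. Genes of DNA replication had a higher mean for 24 of 28 members and a median of 0.17, and those of the unfolded protein and integrated stress response for 19 of 28 with a median of 0.10. Subunits of oxidative phosphorylation (29 genes, -0.13 to 0.21) and of the proteasome (28 genes, -0.16 to 0.41) had medians of 0.0055 and 0.0025. Interferon-stimulated genes had a median of 0.13 over 23 genes, and no member was below an unadjusted p of 0.05 in either direction.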
